A study of Mus musculus with 17 samples.

Results

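The genes described are 10 heat shock genes of the mouse liver, measured on 2-color oligonucleotide arrays. They were Hspa8, Hspa1a, Hspa1b, Hsph1, Dnajb1, Hspb1, Hsp90aa1, Hsp90ab1, Hspd1, and Hsf1. The set was defined by gene symbol, and it was drawn up with earlier results of these data known. All probes that the deposited ratio table assigned to these symbols were taken, which gave 17 probes of 41174, and 17 of 17 passed the filter on low signal that 34650 probes passed in all. Of the 10 genes, 8 encode cytosolic chaperones. Hspd1 encodes HSP60, the chaperonin of the mitochondrial matrix, and Hsf1 encodes a transcription factor, so the name cytosolic heat shock proteins holds for the other 8 only.

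Livers came from male mice of strain C57BL/6N by the sample labels, and C57BL/6J by the methods. The labels name no engineered allele. There were 4 groups, each on its diet for 3 months: 4 mice on chow with a maltose gavage (chow), 4 on chow with 1 ethanol gavage of 5 g/kg (1B), 4 on a high-fat diet with maltose (HFD), and 5 on the high-fat diet with the ethanol gavage (HFD+1B). Livers were taken 9 hours after the gavage, and each mouse had 1 array. Each value is the log2 ratio of liver RNA in Cy5 to a common RNA reference in Cy3, so a value of 0 means equal to the reference and levels of different genes cannot be set against each other. The age of the mice at the start was not given in the sources used here. The whole liver was measured, and fewer cells of a type and less RNA per cell cannot be told apart.

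Heat shock proteins are molecular chaperones that bind unfolded proteins and help them fold, or hold them until they can be refolded or degraded. HSP70 proteins take up clients with the help of J-domain partners and release them with the help of nucleotide exchange factors, and HSP90 receives part of these clients for the late steps of folding, steroid hormone receptors and kinases among them. Under heat or other stress that unfolds proteins, HSF1 is freed from chaperones, binds heat shock elements in promoters, and raises transcription of the inducible members. In liver, ethanol oxidation yields acetaldehyde and reactive oxygen species, which can damage proteins.

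The median net Cy5 signal per array was 42 to 76 intensity units in HFD mice and 68.5 to 137 in HFD+1B mice, with chow and 1B arrays between 48.75 and 114.5. All 8 hepatocyte markers examined, Alb and Hnf4a among them, were well above background on 17 of 17 arrays. The mean of their log2 ratios ranged from 0.21 to 0.35 in chow and from -0.45 to -0.02 in HFD mice. It ranged from 0.10 to 0.29 in 1B and from 0.02 to 0.50 in HFD+1B mice. By the rule for calls given below, 2 of the 8 were lower in HFD than in chow and 0 higher. For all genes these shares were 6.47% and 4.5%. The differences of the 8 ran from -2.77 to 0.51. Mouse 4 of the HFD+1B group stood apart: it was the highest of its group for 7 of the 9 members with a value in that mouse. In the chow group, mouse 2 was the highest for 7 of 10 members, and mouse 1 was the lowest for 6 of the 8 with a value. Mouse 4 of the 1B group was the lowest for 7 of 10. Results that turn on HFD+1B mouse 4 or chow mouse 2 are given with and without that mouse. For Hspa8 and Hspa1b, fits without 1B mouse 4 are given too. Outlier spots, as marked by the scanner software, were dropped, which removed 7 of the 289 member values.

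For a gene with several probes the brightest in Cy5 is the lead probe and stands for the gene. A gene was called when its adjusted P in limma, over all tested probes, did not exceed 0.05. The 6 comparisons share groups (chow enters 3 differences, and HFD+1B enters 3), so calls in different comparisons are not independent of each other.

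The main pattern was found in HFD+1B livers, where the 10 genes did not move together. The small heat shock protein gene Hspb1 was 2.91-fold higher than in chow and Hsp90aa1 was 1.89-fold higher, whereas Hsph1 was 2.36-fold lower and Dnajb1 was 1.3-fold lower. Against 1B, the inducible HSP70 gene Hspa1b and the constitutive Hspa8 were lower as well. The calls of Dnajb1 and Hspa1b rest on 1 of 2 probes each. The second probe gave 0.03 for Dnajb1 against chow and -0.46 for Hspa1b against 1B, and neither was called. The mean of both probes was not called either. The Hspa1b lead probe also lacks HFD+1B mouse 4, whose spot was marked as an outlier. After ethanol alone none of the 10 genes was called.

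Of the 10 members, 0 were called in 1B against chow, beside 4.14% of all 19350 genes (2.09% higher and 2.05% lower). An unadjusted P under 0.05 in limma was seen for 3 members. The share of all genes at that looser threshold was not counted, so this number cannot be read as high or low. The high-fat diet gave 1 higher and 1 lower member, where 11% of all genes were called (4.5% higher and 6.47% lower). Set against chow, HFD+1B livers had 2 higher and 2 lower members (16.3% of all genes), and set against HFD livers they had 2 higher and 1 lower (19.4%). Set against 1B, they had 1 higher and 4 lower, beside 11.4% of all genes in either direction and 5.15% of all genes lower. The diet-by-ethanol term, which is HFD+1B minus HFD less the difference of 1B and chow, was called for 1 member with a positive sign, beside 4.38% of all genes (2.66% positive and 1.72% negative). By the rule of a 2-fold or larger difference with an unadjusted P up to 0.05, the 6 comparisons had 0, 0, 2, 2, 2, and 3 members in the order just given, and 1.06%, 1.93%, 3.03%, 2.12%, 1.91%, and 2.25% of all genes. The mice of both groups did not overlap for 2 members in 1B against chow (12% of all genes), for 3 in HFD against chow (19.3%), and for 5 each in HFD+1B against chow (15.6%), HFD (15.3%), and 1B (11.5%). The median log2 difference of the 10 members was 0.12 after ethanol alone and 0.18 after the high-fat diet alone. For HFD+1B it was -0.04 relative to chow, -0.19 relative to HFD, and 0.04 relative to 1B. The median over all genes lay between -0.01 and 0.01 in each of these. Among the calls counted here, the lower member in HFD against chow was Hsf1 by its lead probe. That probe was also 1 of the 2 higher members in HFD+1B against HFD, and the member called for the diet-by-ethanol term. The other 2 Hsf1 probes were not called in any of these, and in the last 2 they had the opposite sign.

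**Figure D1:**
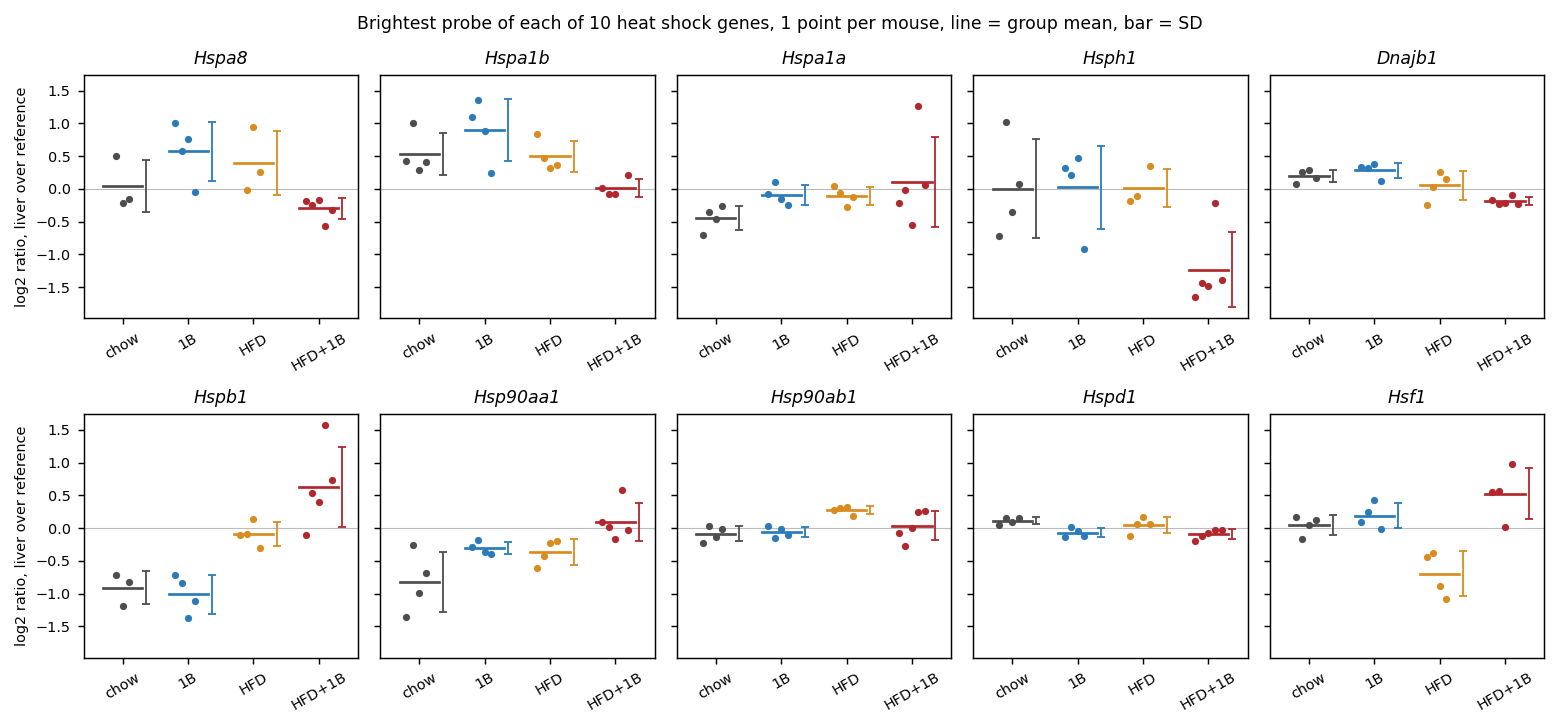
Log2 ratio of liver to reference for the lead probe of each of the 10 genes, with 1 point per mouse, a line at the group mean, and a bar of 1 SD. Hspb1 rises from -0.91 in chow to 0.63 in HFD+1B, and Hsph1 falls to -1.23 in HFD+1B with mouse 4 alone near the other groups.

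Hspb1 encodes HSP25, the small heat shock protein that holds unfolded proteins in an ATP-independent way and binds actin. Its probe matched a coding stretch with no stop codon in any of the 3 forward frames, and it is shown because it carries the strongest call.
Hspb1 probe A_52_P404533: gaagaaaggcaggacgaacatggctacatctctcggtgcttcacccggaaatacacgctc
The log2 ratio was -0.72, -1.19, and -0.82 in the chow mice with a value (mouse 1 had an outlier spot). It was -0.71, -0.84, -1.38, and -1.12 in 1B. The HFD mice had -0.11, -0.08, 0.14, and -0.30. In HFD+1B it was -0.10, 0.54, 0.41, 1.58, and 0.74. Every HFD+1B mouse lay above every chow and 1B mouse, and 1 of 5 lay within the range of the HFD mice.

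Hspb1 was higher in HFD+1B than in chow by 1.54 (SE 0.26, limma, adjusted P = 0.0006) and higher than in 1B by 1.64 (SE 0.24, adjusted P = 0.000369). Both calls held under all 29 alternatives run, with differences of 1.3 to 1.72 and 1.41 to 1.83, and the difference was positive on each slide that held both groups (3 of 3 and 4 of 4). Against HFD it was higher by 0.72 (SE 0.24, adjusted P = 0.0462), a call kept in 13 of 29 alternatives. Of the fits that left out 1 mouse, those without 1B mouse 2 or 4, any HFD mouse, HFD+1B mouse 2, 4, or 5, or chow mouse 2, 3, or 4 lost it, and without HFD+1B mouse 4 the difference was 0.48 (adjusted P = 0.0909). HFD alone exceeded chow by 0.82 (SE 0.27, adjusted P = 0.0663), without overlap of the groups, a difference that was called in 4 of 29 alternatives, among them the fit with outlier spots kept (0.85, adjusted P = 0.0337) and those without HFD+1B mouse 1 (adjusted P = 0.0329) or 4 (adjusted P = 0.0138). The 1B and chow groups overlapped, with a difference of -0.10 (95% confidence interval, -0.68 to 0.47).

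Markers of stellate cells, like Hspb1, had higher group means in HFD and HFD+1B than in chow. In 1B their mean was above chow (-0.54 against -0.77), whereas that of Hspb1 was not (-1.01 against -0.91). The mean log2 ratio of the 7 markers, Des, Lrat, and Col1a1 among them and all well above background on 17 arrays, ran from -0.92 to -0.54 in chow mice, from -0.58 to -0.48 in 1B mice, from -0.12 to 0.20 in HFD mice, and from -0.38 to 0.65 in HFD+1B mice. Of the 7, 6 were called higher in HFD+1B than in chow (8.9% of all genes) and 2 higher than in HFD (11%). In the HFD+1B mice the mean was -0.38, 0.37, 0.10, 0.65, and 0.58 for mice 1 to 5, which is the same order of mice as for Hspb1. That order was not particular to stellate markers, since the cholangiocyte markers had it too (-0.012, 0.22, -0.002, 0.72, and 0.34). The mean of the 5 cholangiocyte markers was -0.41 to -0.16 in chow and -0.01 to 0.72 in HFD+1B, that of the 6 markers of sinusoidal endothelium -0.63 to -0.52 and -0.18 to 0.06, and that of the 5 macrophage and Kupffer cell markers tested -0.37 to 0.03 and 0.17 to 0.55. Not all markers of these 3 lists moved with the mean. Against chow, 1 cholangiocyte, 2 endothelial, and 1 macrophage marker were called higher in HFD+1B. One endothelial marker was called lower, and the endothelial differences ran from -1.05 to 3.19. Of all genes, 8.9% were called higher and 7.4% lower. The part of these cells in the Hspb1 difference was not tested.

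Hspa8 encodes HSC70, the constitutive cytosolic HSP70. In HFD+1B its log2 ratio was -0.19, -0.24, -0.16, -0.57, and -0.33. In 1B it was 1.01, 0.57, 0.76, and -0.05, in HFD -0.02, 0.94, and 0.26 (mouse 1 had an outlier spot), and in chow 0.50, -0.22, and -0.16 (the same for mouse 1). All 5 HFD+1B mice lay below all 1B and HFD mice, and they overlapped with chow. The probe is shown because the interaction for this gene lay next to the threshold.
Hspa8 probe A_51_P170371: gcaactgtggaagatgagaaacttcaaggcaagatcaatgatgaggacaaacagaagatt
Hspa8 was lower in HFD+1B than in 1B by 0.87 on the log2 scale (a difference of -0.87, SE 0.22, adjusted P = 0.0184), and the difference was negative on 4 of 4 slides. The call was lost without 1B mouse 1 (-0.72, adjusted P = 0.0714) or without 1B mouse 3 (-0.81, adjusted P = 0.0628), and with median centring (-0.81, adjusted P = 0.0662) or Cy5 signals alone (-1.17, adjusted P = 0.0555). The difference from HFD was -0.69 (SE 0.24, adjusted P = 0.0554), and it was called without 1B mouse 1 or 4, HFD mouse 2, or chow mouse 2 (adjusted P = 0.0293 to 0.0472). In chow-fed mice ethanol gave 0.53 (SE 0.25, adjusted P = 0.357), and the diet-by-ethanol term was -1.22 (SE 0.34, adjusted P = 0.057). Neither was called, and the term passed the threshold in 5 of the 28 alternatives, among them the filter on signal in all arrays (adjusted P = 0.0451) and the fits without 1B mouse 4 (adjusted P = 0.0246), HFD mouse 2 (adjusted P = 0.0337), or chow mouse 2 (adjusted P = 0.0332).

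Hspa1a and Hspa1b encode the stress-inducible HSP70 proteins. They are neighboring genes with nearly the same coding sequence, so a coding probe may take up RNA of either, and the split between them is uncertain. The 2 probes assigned to Hspa1b are shown because they gave unequal differences.
Hspa1b lead probe A_52_P52803: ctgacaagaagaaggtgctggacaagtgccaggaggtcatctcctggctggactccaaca
Hspa1b probe A_52_P304902: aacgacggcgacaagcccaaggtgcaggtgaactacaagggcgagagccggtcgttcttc
Both have open frames, and no stretch longer than 7 bases was common to both. The 2 probes assigned to Hspa1a overlapped each other by 30 bases and had no stretch longer than 5 bases in common with either Hspa1b probe.

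The Hspa1b lead probe gave 0.42, 1.00, 0.30, and 0.42 in chow, and 1.10, 1.36, 0.88, and 0.25 in 1B. It gave 0.84, 0.48, 0.31, and 0.36 in HFD, and 0.01, -0.08, -0.07, and 0.22 in the HFD+1B mice with a value. The HFD+1B values lay below all others. The spot of HFD+1B mouse 4, marked as an outlier, would have given 0.82, and the second probe gave 0.59 in that mouse against -0.96 to -0.23 in the other 4. Hspa1b was lower in HFD+1B than in 1B by a log2 difference of -0.88 (SE 0.20, adjusted P = 0.0098), on 3 of 3 slides, and with the outlier spot kept the difference was -0.72 (adjusted P = 0.0431). It was -0.52 against chow (SE 0.20, adjusted P = 0.102) and -0.48 against HFD (SE 0.20, adjusted P = 0.11). With slide as a block these differences were called, at -0.52 (adjusted P = 0.0269) and -0.56 (adjusted P = 0.0166), and the diet-by-ethanol term was -1.0 (adjusted P = 0.0192) in place of -0.84 (SE 0.28, adjusted P = 0.103). Without 1B mouse 4 all 3 were called as well, with adjusted P of 0.0378, 0.0466, and 0.025. Neither of these fits holds a value of HFD+1B mouse 4 on the lead probe. For the second probe the difference between HFD+1B and 1B was -0.46 (SE 0.25, adjusted P = 0.301). Its differences from chow and HFD were -0.29 (adjusted P = 0.519) and 0.14 (adjusted P = 0.759), the latter of opposite sign to the lead probe. The diet-by-ethanol term of the second probe was -0.03 (adjusted P = 0.974). Against 1B, the mean of both probes was not called (-0.61, adjusted P = 0.0613). The lead probe's call against 1B was also lost with Cy5 signals alone (-0.77, adjusted P = 0.0993) and in the authors' table (-0.70, adjusted P = 0.093).

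The lead probe of Hspa1a was dim, well above background on 1 chow array and 3 arrays of each other group. Its log2 ratio ran from -0.70 to -0.27 for chow mice, from -0.25 to 0.11 for 1B mice, and from -0.28 to 0.04 for HFD mice. The HFD+1B mice had -0.22, -0.01, -0.55, 1.26, and 0.06. Mouse 4 of HFD+1B was far above the rest, on the second Hspa1a probe too (0.81 against -0.24 to 0.25). The difference between HFD+1B and chow was 0.55 (SE 0.24, adjusted P = 0.144), 0.26 (adjusted P = 0.243) without mouse 4, and 0.72 (adjusted P = 0.045) without mouse 3. With all mice, no Hspa1a probe was called in any comparison.

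Hsph1 encodes HSP110, which acts as a nucleotide exchange factor of HSP70 and helps to dissolve aggregates. In HFD+1B the log2 ratio was -1.65, -1.44, -1.48, -0.22, and -1.39. It was -0.72, 1.02, -0.35, and 0.08 in chow, 0.32, 0.22, 0.46, and -0.91 in 1B. The HFD mice with a value had -0.19, -0.11, and 0.35 (mouse 3 had an outlier spot). Apart from mouse 4, the HFD+1B mice lay below every mouse of the other groups. Hsph1 was lower in HFD+1B than in chow by a log2 difference of -1.24 (SE 0.35, adjusted P = 0.0229), than in HFD by -1.25 (SE 0.38, adjusted P = 0.0307), and than in 1B by -1.26 (SE 0.35, adjusted P = 0.0296). Without HFD+1B mouse 4 these were -1.49, -1.50, and -1.51, with adjusted P of 0.00548, 0.0101, and 0.00908. The difference was negative on 4 of 4 slides against chow, on 3 of 3 against HFD, and on 3 of 4 against 1B.

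The spread of Hsph1 within chow and 1B was wide (SD, 0.75 and 0.63), and the calls against chow, HFD, and 1B were kept in 25, 21, and 18 of 29 alternatives. With Cy5 signals alone all 3 were lost (adjusted P = 0.179, 0.239, and 0.13). Against chow, the call was also lost without chow mouse 2 (-0.90, adjusted P = 0.0917) or without chow mouse 4 (adjusted P = 0.0593). Against HFD the other losses were without HFD mouse 2 or 4 or HFD+1B mouse 1, 2, or 3, with median centring (-0.92, adjusted P = 0.0869), and with the analysis of variance of the methods. Against 1B the losses included the fits without 1B mouse 1, 2, or 3, without HFD+1B mouse 1, 2, 3, or 5, with slide as a block (-1.23, adjusted P = 0.0502), and with median centring (-1.08, adjusted P = 0.0616). The direction was the same in all alternatives. In chow-fed mice the ethanol difference was 0.02 (95% confidence interval, -0.76 to 0.79), and the diet-by-ethanol term was -1.27 (SE 0.53, adjusted P = 0.189).

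Dnajb1 encodes HSP40, the J-domain partner that hands clients to HSP70 and stimulates its ATPase. Its lead probe gave -0.17, -0.23, -0.22, -0.09, and -0.24 in HFD+1B. It gave 0.07, 0.25, 0.28, and 0.16 in chow, 0.33, 0.31, 0.38, and 0.12 in 1B. The HFD mice had -0.24, 0.03, 0.26, and 0.15. The HFD+1B mice lay below all chow and 1B mice and overlapped with HFD mouse 1. The difference from chow was -0.38 (SE 0.10, adjusted P = 0.0106) and from 1B -0.47 (SE 0.10, adjusted P = 0.00412), both with the same sign on 4 of 4 slides. The second probe of Dnajb1 gave 0.03 (SE 0.16, adjusted P = 0.928) and -0.10 (SE 0.16, adjusted P = 0.809). Both calls of the lead probe were therefore not shared by the second, and the means of both probes gave -0.17 (adjusted P = 0.231) and -0.29 (adjusted P = 0.0537). The difference from HFD was -0.24 (SE 0.10, adjusted P = 0.0901), and -0.34 (adjusted P = 0.0152) without HFD mouse 1. Median centring in place of loess also ended the calls against chow and 1B, at -0.29 (adjusted P = 0.255) and -0.33 (adjusted P = 0.209), as did Cy5 signals alone (adjusted P = 0.184 and 0.208), and in the authors' table the call against chow was lost (-0.45, adjusted P = 0.0792).

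Hsp90aa1 encodes HSP90 alpha, the stress-inducible HSP90. The log2 ratio was -1.35, -0.26, -0.99, and -0.68 in chow, and -0.29, -0.18, -0.36, and -0.39 in 1B. The HFD mice had -0.61, -0.42, -0.23, and -0.20, and the HFD+1B mice had 0.09, 0.01, -0.17, 0.59, and -0.03. The HFD+1B mice lay above all mice of the other groups. Hsp90aa1 was higher in HFD+1B than in chow by 0.92 (SE 0.18, adjusted P = 0.00161), on 4 of 4 slides, a call kept in 28 of 29 alternatives and lost with Cy5 signals alone (0.80, adjusted P = 0.461). The difference from HFD was 0.46 (SE 0.18, adjusted P = 0.0815) and from 1B 0.40 (SE 0.18, adjusted P = 0.187), neither called with all mice, although the first passed the threshold without chow mouse 1 (adjusted P = 0.047) or 2 (adjusted P = 0.0432). Ethanol alone and HFD alone gave 0.52 (SE 0.19, adjusted P = 0.178) and 0.46 (SE 0.19, adjusted P = 0.134) over chow. Without chow mouse 2, the mouse nearest to the other groups, both passed the threshold, at 0.70 (adjusted P = 0.032) and 0.64 (adjusted P = 0.0302). The 3 members with an unadjusted P under 0.05 in 1B against chow were Hsp90aa1, Hspa8, and Hspd1.

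Hsp90ab1 encodes HSP90 beta, the constitutive HSP90. It gave 0.28, 0.31, 0.33, and 0.19 in HFD, -0.22, 0.03, -0.14, and -0.01 in chow, and -0.15 to 0.03 in 1B. In HFD+1B it gave -0.07, -0.27, 0.00, 0.24, and 0.26. The HFD mice lay above all chow and 1B mice and overlapped with HFD+1B. Hsp90ab1 was higher in HFD than in chow by 0.36 (SE 0.11, adjusted P = 0.0413), on 3 of 3 slides. The call was kept in 14 of 29 alternatives, the difference was 0.03 (adjusted P = 0.909) with median centring, 0.33 (adjusted P = 0.082) with slide as a block, and the second probe gave 0.23 (SE 0.12, adjusted P = 0.215). Leaving out any HFD mouse, chow mouse 1, 3, or 4, 1B mouse 3, or HFD+1B mouse 3 ended it. The difference between HFD+1B and HFD was -0.24 (SE 0.10, adjusted P = 0.113), and -0.30 (adjusted P = 0.0466) without HFD+1B mouse 5.

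Hspd1 was not called in any comparison by its lead probe in the main fit. Of 29 alternatives, 1 called it in 1B against chow and 3 called it in HFD+1B against chow. The lead probe ran from 0.06 to 0.16 for chow, from -0.13 to 0.02 for 1B, from -0.12 to 0.17 for HFD, and from -0.19 to -0.03 for HFD+1B. The 1B and HFD+1B mice lay below all chow mice. The difference from chow was -0.19 (SE 0.08, adjusted P = 0.289) in 1B and -0.21 (SE 0.08, adjusted P = 0.0786) in HFD+1B, and the mean of both Hspd1 probes gave -0.29 (adjusted P = 0.00949) in HFD+1B against chow.

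**Figure D2:**
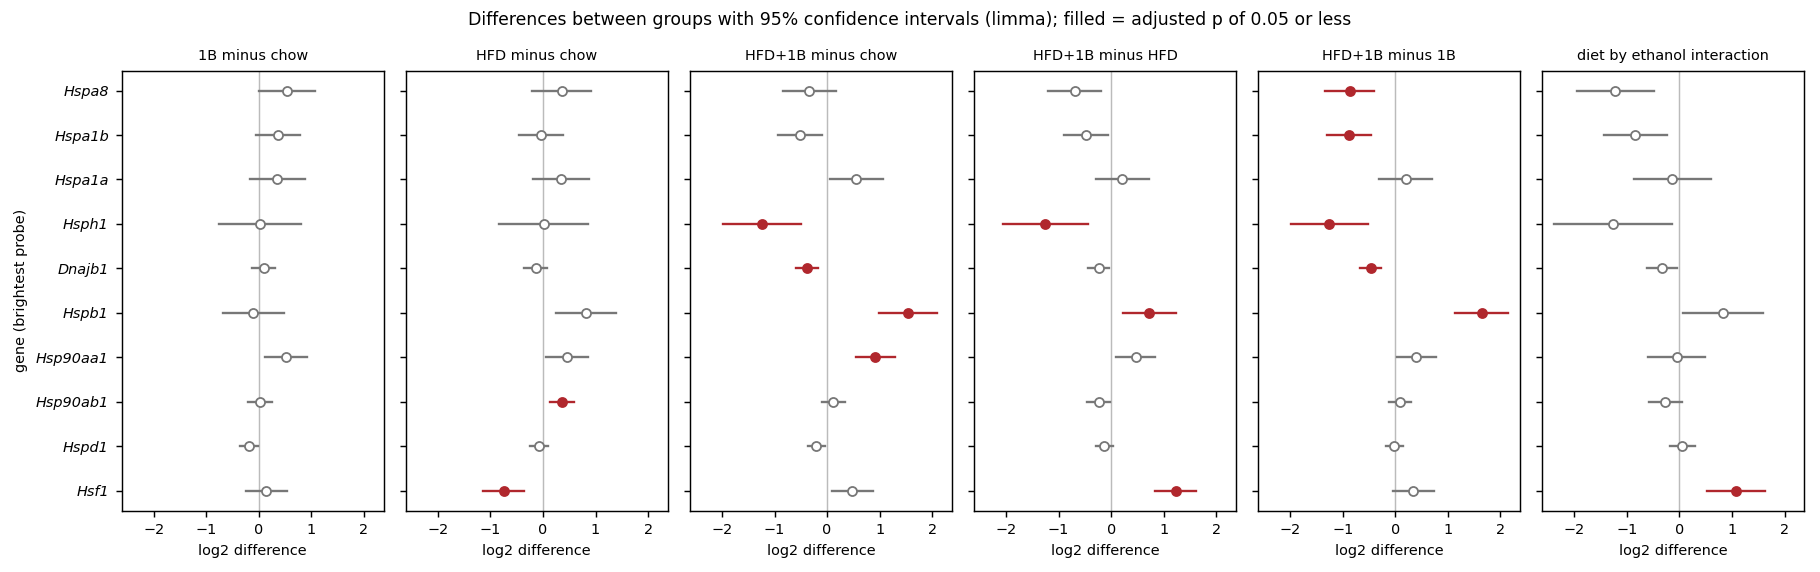
Log2 differences between groups for the lead probe of each gene (points) with 95% confidence intervals (lines), in 6 panels for 6 comparisons, and filled red points for an adjusted P of 0.05 or less. No point is filled in 1B against chow, and in HFD+1B against 1B the 4 filled points on the left are Hspa8, Hspa1b, Hsph1, and Dnajb1.

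Hsf1 encodes the transcription factor that drives heat shock gene transcription, and its activity is set mainly by modification and location of the protein, which RNA arrays do not measure. It had 3 probes, and they disagreed. The lead probe was far brighter (mean net Cy5 signal, 42503 units) than the others (399 and 54.1 units), and it was assigned to another sequence accession than they were. It is shown because the calls for Hsf1 rest on it.
Hsf1 lead probe A_52_P487647: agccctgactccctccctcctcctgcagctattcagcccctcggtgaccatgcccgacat
No other probe of the table had 20 or more bases in common with it on either strand. It gave 0.18, -0.17, 0.05, and 0.13 in chow, 0.10, 0.25, 0.42, and -0.02 in 1B. The HFD mice had -0.45, -0.37, -0.89, and -1.08, and the HFD+1B mice with a value had 0.55, 0.56, 0.02, and 0.98 (mouse 5 had an outlier spot that would have given -0.01). The HFD mice lay below all others.

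By the lead probe Hsf1 was lower in HFD than in chow by a log2 difference of -0.74 (SE 0.18, adjusted P = 0.0177) and it exceeded HFD in HFD+1B mice by 1.22 (SE 0.18, adjusted P = 0.000375), with the same sign on 3 of 3 slides each. The diet-by-ethanol term was 1.08 (SE 0.26, adjusted P = 0.0294). The first and the term were lost with Cy5 signals alone (adjusted P = 0.254 and 0.293) and in the authors' table (adjusted P = 0.0716 and 0.127). The first was also lost without chow mouse 1 or 4 or HFD mouse 3 or 4, and the term without chow mouse 1, 3, or 4, 1B mouse 1 or 4, HFD mouse 3 or 4, or HFD+1B mouse 4 (0.93, adjusted P = 0.0531). The lead probe was 0.48 above chow in HFD+1B (SE 0.18, adjusted P = 0.0948), and 0.65 (adjusted P = 0.0185) without HFD+1B mouse 3. The other 2 probes went the other way in HFD+1B. Probe A_52_P647582 gave -0.39, -0.27, -0.27, -0.30, and -0.03 in HFD+1B and -0.11 to 0.24 in chow, a difference of -0.30 (SE 0.09, adjusted P = 0.0301). Probe A_51_P102943 gave -0.64 to -0.36 in HFD+1B and -0.30 to 0.30 in 1B, a difference of -0.42 (SE 0.11, adjusted P = 0.0228). Against HFD the same probes gave -0.24 (adjusted P = 0.0733) and -0.30 (adjusted P = 0.076), and the mean of all 3 probes was 0.18 (adjusted P = 0.0869).

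Probes for ribosomal RNA, like the Hsf1 lead probe, had their lowest mean in the HFD group. The mean of 3 such probes (Rn18s, Rn45s, and Rn28s1) was 0.26 to 0.74 in chow and -0.94 to 0.22 in 1B. It was -2.38, -1.88, -3.55, and -3.07 in the 4 HFD mice and 0.49, 0.23, 0.33, 1.17, and -0.89 in the 5 HFD+1B mice. The HFD mice lay below all others, as for the lead probe, with mice 3 and 4 the lowest in both and HFD+1B mouse 4 the highest in both. All 3 rRNA probes were called lower in HFD than in chow (6.47% of all genes) and higher in HFD+1B than in HFD (11%). The other groups differed in order. The rRNA mean was 0.53 in chow, -0.26 in 1B, and 0.27 in HFD+1B, and the lead probe had 0.05, 0.19, and 0.53. Whether the rRNA signal bears on that of the lead probe was not tested. The direction of Hsf1 RNA in these groups is given here as undecided between its probes.

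**Figure D3:**
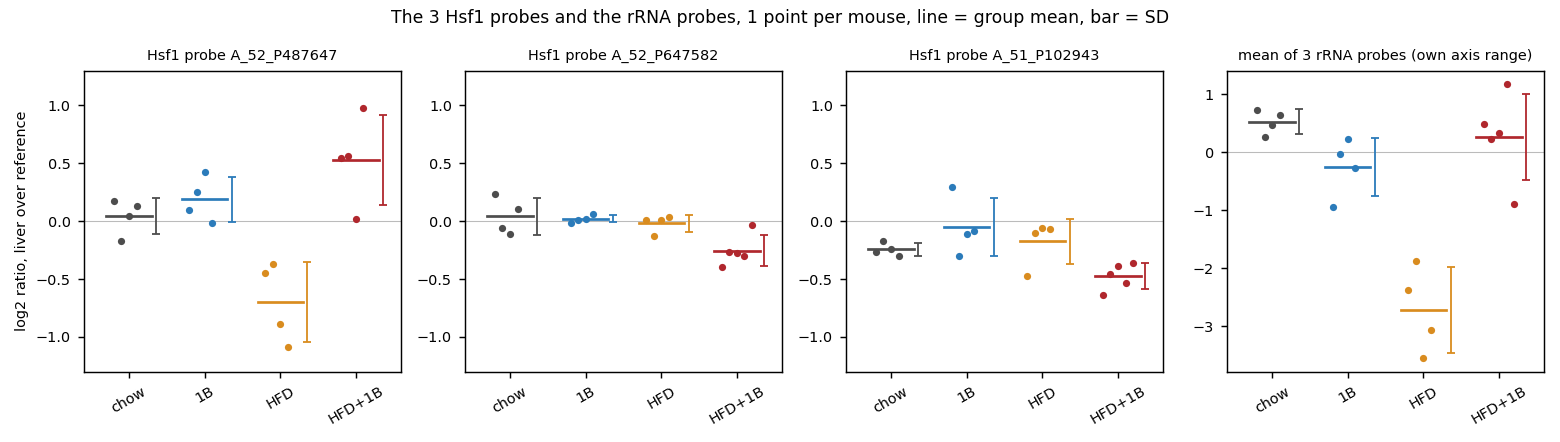
Log2 ratio of liver to reference for the 3 probes of Hsf1 and for the mean of 3 rRNA probes, with 1 point per mouse, a line at the group mean, and a bar of 1 SD. The HFD mice are the lowest on the lead probe (group mean, -0.70) and on the rRNA probes (group mean, -2.72), and they are near chow on the other probes.

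By likeness over the arrays, as a description with no test, the closest of 17979 genes to the Hsf1 lead probe were Erbb4 (Pearson r = 0.976), Fstl3 (r = 0.973), Lrp5 (r = 0.971), Gigyf1 (r = 0.968), and Hoxb6 (r = 0.961), over 16 arrays. For Hspa1b they were Trim27 (r = 0.917), Cmah (r = 0.875), Dtd2 (r = 0.868), the J-domain gene Dnajb4 (r = 0.857), and Prpf4b (r = 0.856), over 16 arrays. For Hspa8 they were LOC102642432 (r = 0.947), Glt28d2 (r = 0.914), Armcx3 (r = 0.906), Zfp566 (r = 0.886), and 2700094K13Rik (r = 0.874), over 15 arrays. For Hsp90ab1 they were Gabarap (r = 0.916), Ywhaq (r = 0.881), Atp6ap1 (r = 0.846), Snrpn (r = 0.827), and Rab24 (r = 0.826), over 17 arrays. These arrays share 1 reference and span all 4 groups, so the correlations include the differences between groups.

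Promoters of 6 members were matched in a RefSeq table of build GRCm38.p6 (Hspa1a, Hspa1b, Hsph1, Dnajb1, Hspb1, and Hspd1). The 250 bases before each annotated start were searched for heat shock elements in the forms GAANNTTC and TTCNNGAA, which are their own reverse complements, and for longer forms with 1 more unit, GAANNTTC followed by NNGAA and TTCNNGAA followed by NNTTC, each of which contains both shorter forms and is the reverse complement of the other. Among 32851 promoters of this length, 6.69% held the first, 7.17% the second, 12.8% either, and 0.466% a longer form. The promoters of Hspb1, which was higher in HFD+1B, and of Hsph1, which was lower, are shown with matches in capitals. That of Hspa1b, which was lower against 1B by its lead probe, is shown too.
Hspb1, chr5:135887669-135887918, plus strand: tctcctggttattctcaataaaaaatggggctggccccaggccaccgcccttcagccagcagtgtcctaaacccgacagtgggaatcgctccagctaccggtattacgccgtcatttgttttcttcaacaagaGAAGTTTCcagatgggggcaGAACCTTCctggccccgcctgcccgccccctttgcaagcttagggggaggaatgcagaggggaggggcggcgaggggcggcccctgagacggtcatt
Hspa1b, chr17:34959239-34959488, minus strand: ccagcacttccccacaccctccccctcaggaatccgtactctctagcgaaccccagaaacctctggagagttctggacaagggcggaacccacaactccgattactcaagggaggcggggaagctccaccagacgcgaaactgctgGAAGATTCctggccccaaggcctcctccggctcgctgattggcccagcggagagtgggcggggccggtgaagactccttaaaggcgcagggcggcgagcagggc
Hsph1, chr5:149636337-149636586, minus strand: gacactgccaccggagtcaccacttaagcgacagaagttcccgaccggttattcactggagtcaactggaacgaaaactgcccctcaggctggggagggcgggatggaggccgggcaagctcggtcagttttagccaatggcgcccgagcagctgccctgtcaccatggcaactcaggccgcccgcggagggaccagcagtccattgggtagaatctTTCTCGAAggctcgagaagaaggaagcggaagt
Hspb1 held 2 matches, 117 and 97 bases before the start, Hspa1b held 1 at 104 bases, and Hsph1 held 1 at 33 bases before the start shown. The Hspa1a promoter differed from that of Hspa1b at 3 of 250 positions and held the same match. Of 2 Hspd1 starts, 1 held matches, both longer forms among them, and no match was found in the 250 bases before either start of Dnajb1. Matches thus stood before genes that were higher, lower, or not called in HFD+1B, and a match in these letters does not show binding.

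The rest of the cytosolic and mitochondrial chaperone system was examined in 8 lists of 91 genes, of which 89 were tested. Relative to chow, HFD+1B livers had 8 of them higher and 10 lower (median, -0.08), beside 8.9% and 7.4% of all genes. Relative to HFD, 9 were higher and 16 lower (median, -0.06), beside 11% and 8.4%. Relative to 1B, 4 were higher and 11 lower (median, -0.06), beside 6.28% and 5.15%. In 1B against chow 2 were higher and 1 lower, beside 2.09% and 2.05% of all genes. In HFD against chow 2 were higher and 3 lower, beside 4.5% and 6.47%. The diet-by-ethanol term was called positive for 1 and negative for 3, beside 2.66% and 1.72%. Each call of a named gene was tried again with 5 other treatments of the signal, and not all calls were kept. The treatments were Cy5 alone, median centring, no background subtraction, an offset of 16, and the authors' table.

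Of 17 other cytosolic J-domain genes tested, 5 were lower in HFD+1B than in HFD and 0 higher, beside 8.4% and 11% of all genes. Dnaja1, an HSP70 partner like Dnajb1, was -0.41 ± 0.23 (SD, n = 5) in HFD+1B against 0.53 ± 0.13 in HFD (n = 4), 0.21 ± 0.24 in chow (n = 4), and 0.31 ± 0.14 in 1B (n = 4). It was lower in HFD+1B than in each of them (log2 differences of -0.94, -0.62, and -0.72, with adjusted P of 0.000137, 0.00231, and 0.00139 in limma), and its diet-by-ethanol term was -1.04 (SE 0.18, adjusted P = 0.00733). Dnajc9, a histone cochaperone, differed by -0.74 from HFD (adjusted P = 0.00187), and Dnajb14 by -0.50 (adjusted P = 0.0139). With median centring the list had 2 higher and 3 lower genes in this comparison and a median of 0.05 in place of -0.14, so no direction is given for the list. The call of Dnaja1 against HFD was kept with all 5 treatments, and its other calls and those of Dnajc9 and Dnajb14 against HFD were lost with Cy5 alone.

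Among the 9 other HSP70 and HSP110 genes, Hspa14, whose product works at the ribosome, was -1.22 ± 0.23 in chow (SD, n = 4) and 0.32 ± 0.54 in HFD+1B (n = 5), a difference of 1.54 (SE 0.23, adjusted P = 0.000147), and Hspa4, an HSP110 relative of Hsph1, was higher by 0.34 (SE 0.08, adjusted P = 0.0049). Regulators of HSP70 gave 3 higher of 8 and 0 lower in HFD+1B against HFD, beside 11% and 8.4% of all genes. These were Bag3, a stress-inducible exchange factor (0.48, adjusted P = 0.00693), Bag2 (0.59, adjusted P = 0.0185), and St13, which slows nucleotide exchange (0.58, adjusted P = 0.000956). Bag3 was also higher in 1B than in chow (0.57, SE 0.12, adjusted P = 0.0103), where Bag4 was lower (-0.46, SE 0.12, adjusted P = 0.0412). The call of Bag4 was lost with all 5 other treatments of the signal, and that of Bag3 in 1B with 3 of them (Cy5 alone, median centring, and the authors' table). Against HFD, the calls of Bag2 and Bag3 were kept with all 5, and that of St13 was lost with Cy5 alone, as was that of Hspa4 against chow.

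Of 16 HSP90 cochaperones, 1 was higher and 6 were lower when HFD+1B was set against HFD, beside 11% and 8.4% of all genes. The higher one was Fkbp5, an immunophilin of steroid receptor complexes and a glucocorticoid-induced gene, at 0.06 ± 0.20 in HFD+1B (SD, n = 5), -1.16 ± 0.30 in HFD, -0.88 ± 0.25 in chow, and 0.23 ± 0.15 in 1B (n = 4 each). It was higher with ethanol on either diet, by 1.1 on chow (SE 0.15, adjusted P = 0.000334) and 1.22 on HFD (SE 0.14, adjusted P = 4.82e-05). Its relative Fkbp4 differed by -0.71 between HFD+1B and chow (SE 0.14, adjusted P = 0.0015), and Unc45a, a myosin chaperone, was higher by 0.66 (adjusted P = 0.00125). Ttc4 was lower than in HFD (-0.54, adjusted P = 0.0213). The 6 lower calls became 1 with median centring and 0 with Cy5 signals alone, and Ttc4 was among those lost with either. The calls of Fkbp5, and of Fkbp4 against chow, were kept with all 5 other treatments of the signal, and that of Unc45a was lost with Cy5 alone.

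Among the 9 other small heat shock proteins Hspb8, a partner of Bag3, was higher in HFD+1B, as Hspb1 was: 0.23 ± 0.26 (SD, n = 5) against -0.70 ± 0.18 for chow, -0.63 ± 0.29 for 1B, and -0.45 ± 0.16 for HFD (n = 4 each), with differences of 0.93, 0.86, and 0.68 (adjusted P = 0.000246, 0.00103, and 0.00394). The first was kept with all 5 other treatments, and the others were lost with Cy5 alone. Of the 13 genes of the cytosolic chaperonin and of prefoldin, 1 was higher and 3 were lower relative to HFD in HFD+1B livers. For all genes these shares were 11% and 8.4%. The higher one was Pfdn2 (0.41, adjusted P = 0.00736). Among the lower were the chaperonin subunits Tcp1 (-0.49, adjusted P = 0.00272) and Cct4 (-0.41, adjusted P = 0.00897). Their differences from chow were -0.32 (adjusted P = 0.0381) and -0.36 (adjusted P = 0.0188), calls that were lost with 4 of the 5 other treatments, and those against HFD were lost with Cy5 alone and median centring. That of Pfdn2 was lost with Cy5 alone. Of 13 mitochondrial genes, Hspe1, the partner of Hspd1, was lower than in HFD (-0.38, adjusted P = 0.0378), and against chow Clpx was higher (0.81, adjusted P = 0.0398) and Clpp lower (-0.40, adjusted P = 0.0402), which encode the partners of 1 protease. The call of Clpp was lost with all 5 other treatments, that of Hspe1 with 4, and that of Clpx with 2 (Cy5 alone and the authors' table). Of the 5 other heat shock factors and binding proteins, Hsf4 was lower than in chow (-0.37, adjusted P = 0.00525) and than in HFD (-0.32, adjusted P = 0.0134), and Hsf2bp was higher than in HFD (0.59, adjusted P = 0.0133). Both Hsf4 calls were lost with Cy5 alone and median centring, and that of Hsf2bp with Cy5 alone and in the authors' table.

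Chaperones of the endoplasmic reticulum were set beside the cytosolic genes. Of 15, 3 were higher in 1B than in chow and 0 lower (median, 0.57), beside 2.09% of all genes higher and 2.05% lower. Creld2 was 0.87 ± 0.49 in 1B (SD, n = 4) against -0.83 ± 0.37 in chow (n = 3), a difference of 1.69 (SE 0.33, adjusted P = 0.0066). Hspa5, the HSP70 of this compartment, was higher by 1.22 (SE 0.29, adjusted P = 0.0272), and the third was Dnajb11 (0.76, adjusted P = 0.0323), named after its value was seen. The 3 higher calls became 1 with Cy5 alone or median centring and 2 in the authors' table. Creld2 was lost with Cy5 alone, Hspa5 with median centring, and Dnajb11 with each of these 3. Between HFD+1B and 1B, 11 of 15 were lower and 0 higher (median, -0.79), beside 5.15% and 6.28% of all genes. The lower ones ran from -2.06 for Creld2 (adjusted P = 0.00026) to -0.52. In that comparison 4 of the 10 members were lower too. The lower calls numbered 7 to 11 in the scalings tried, and the median kept its sign. Against chow, none of the 15 was called in HFD+1B (median, -0.23), beside 16.3% of all genes. In HFD+1B against HFD 3 were higher and 0 lower, beside 11% and 8.4% of all genes. They were led by Pdia4 (1.27, SE 0.28, adjusted P = 0.00557), which was lower in HFD than in chow (-1.51, SE 0.30, adjusted P = 0.00554). The diet-by-ethanol term was called for Creld2 among the 15, beside 4.38% of all genes.

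**Figure D4:**
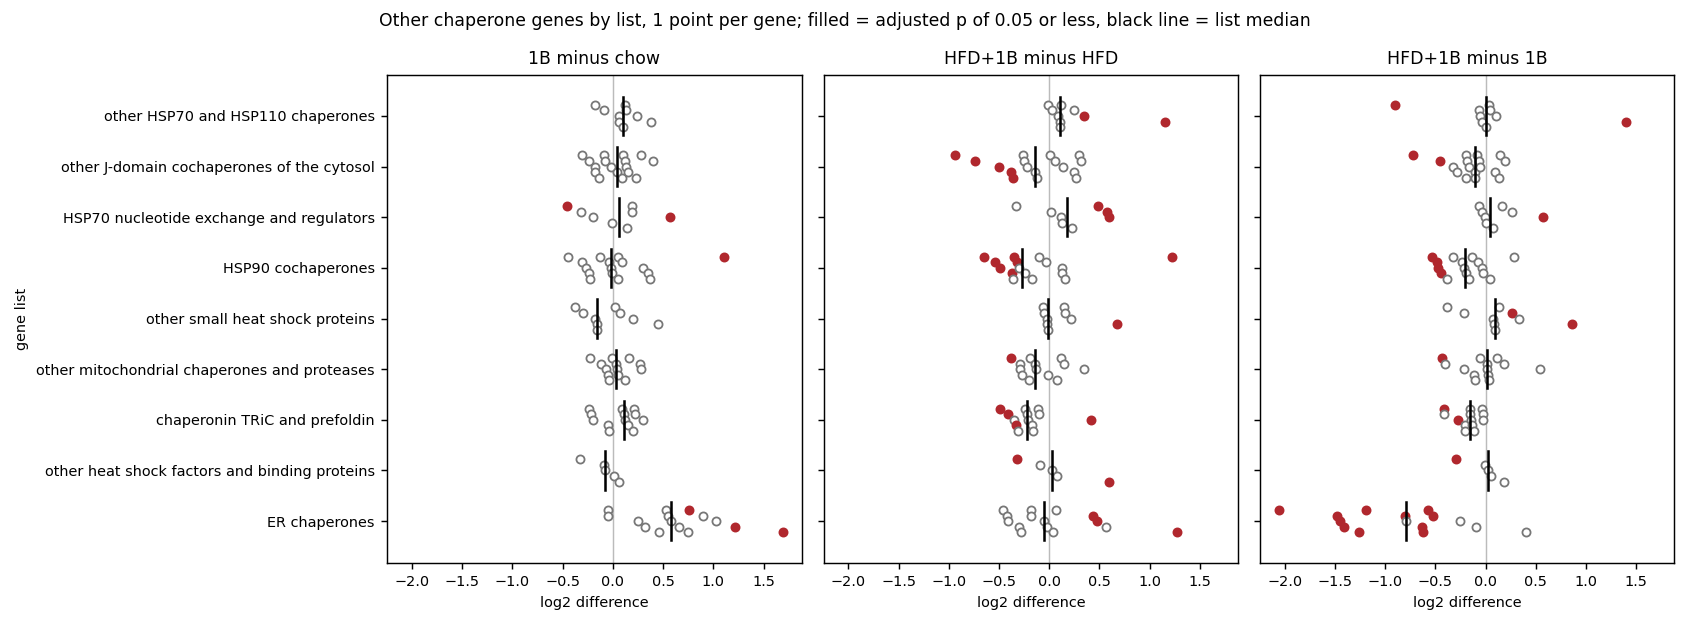
Log2 differences of other chaperone genes by list, with 1 point per gene, red fill where the adjusted P did not exceed 0.05, and a black line at the list median, for 1B against chow, HFD+1B against HFD, and HFD+1B against 1B. The median of the endoplasmic reticulum list stands to the right of 0 after ethanol on chow (0.57) and to the left in HFD+1B against 1B (-0.79). All tested chaperonin and prefoldin genes also lie to the left in HFD+1B against 1B (-0.41 to -0.03). Otherwise the genes of the other lists lie on both sides of 0.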

How the data were processed

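Liver RNA of 17 mice was hybridized on 2-color Agilent arrays, 1 array per mouse on 5 slides, with Cy5 for liver and Cy3 for a common reference and no dye swap. The authors read the scans with Agilent Feature Extraction 11.5.1.1. The deposited scanner files hold raw intensity (median signal and background) of 45018 spots, and the deposited table gives log2 ratios of 41174 probes, which equal those of the processed signals (largest difference, 2.74e-06). All value columns had a sample (0 left over).

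Background was corrected with normexp (offset, 50), outlier spots were dropped, loess was applied to each array, and repeated spots were averaged. A probe was tested if 4 or more of the 17 arrays had Cy5 well above background and each group had a value (34650 probes; 19350 genes by lead probe). Group means were fitted with limma 3.58.1 in R 4.3.3 (lmFit and eBayes, 13 residual degrees of freedom), adjusted by Benjamini-Hochberg over all probes, and checked on simulated data. Every P given is two-sided. The mice are separate animals, and their number limits the precision.

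Genes named outside the members are, per list, up to 3 with the largest difference in 1B against chow, HFD+1B against chow, and HFD+1B against HFD, kept at an adjusted P of 0.05 or less, and for 4 members the 5 most alike genes. A gene that this rule names is not reported here. Within-slide differences are of mice on the same slide. The members, lists, and comparisons were chosen with earlier results of these data known. Alternatives tried were other background corrections and offsets (16), median centring, Cy5 alone, the authors' table, other filters, all probes, slide and replicate blocks, the analysis of variance of the methods, other thresholds, and leaving out each mouse. The lists for T cells, B cells, neutrophils, and erythroid cells were measured as well: the range of their means over all mice was -0.26 to 0.09, -0.14 to 0.30, -0.02 to 0.53, and -0.50 to 0.44.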

Additional observations from a re-analysis of the deposited data

Results flagged for a closer look

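Of 63 groups of 4 or 5 mice examined over the 17 probes, 6 held a mouse whose gap to the nearest other mouse was a larger share of the range of the group than Dixon's limit allows, where chance (about 1 in 20 groups) gives 3.15. In the HFD group the gap was 0.874 of the range for mouse 3 as the highest on the second Hspa1a probe, 0.880 for mouse 3 as the lowest on the second Hspa1b probe, 0.869 for mouse 1 as the highest on the second Dnajb1 probe, and 0.909 for mouse 1 as the lowest on the dimmest Hsf1 probe. In the 1B group it was 0.930 for mouse 4 as the lowest on the second Hspd1 probe. In the HFD+1B group it was 0.816 for mouse 4 as the highest on the Hsph1 probe, and leaving this mouse out moved the Hsph1 difference from chow from -1.24 to -1.49. The ethanol difference of the Hsf1 lead probe was not the same on HFD and on chow, with a diet-by-ethanol term of 1.08 (adjusted P = 0.0294 in limma), and the other Hsf1 probes gave terms of -0.21 (adjusted P = 0.379) and -0.49 (adjusted P = 0.0987).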

How the results depend on the processing

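No called difference of the 10 members changed sign under any alternative run. Among the alternatives, the Tukey test of the methods adjusts P over the pairs of groups for 1 gene and not over all probes. Its calls therefore follow another rule. The number of members called in 1B against chow was 0, and 1 with the analysis of variance and Tukey test. In HFD against chow it was 2, but 0 with Cy5 signals alone, at an adjusted P of 0.01, at a fold of 2 with an unadjusted P, or in the authors' table, and 1 with the mean of all probes, median centring, or slide as a block. In HFD+1B against chow it was 4, with 1 for Cy5 alone, 2 at an adjusted P of 0.01, and 2 at a fold of 2. In HFD+1B against HFD it was 3, with 1 for Cy5 alone, 1 at an adjusted P of 0.01, and 1 for the Tukey test. In HFD+1B against 1B it was 5, with 1 for Cy5 alone, 3 at an adjusted P of 0.01, 2 at a fold of 2, 3 for the mean of all probes, and 2 for median centring. For the diet-by-ethanol term it was 1, with 0 for Cy5 alone, at an adjusted P of 0.01, for the mean of all probes, and in the authors' table, 3 at a fold of 2, and 2 for an offset of 16, slide as a block, or the filter on all 17 arrays. The cause of these changes was not tested.

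Leaving out each mouse gave 0 to 1 members in 1B against chow, 0 to 3 in HFD against chow, 3 to 6 in HFD+1B against chow, 1 to 4 in HFD+1B against HFD, 3 to 5 in HFD+1B against 1B, and 0 to 2 for the term. With the replicate block the counts were 0, 2, 4, 3, 4, and 2 in the same order. It ended the calls of Hspb1 against HFD (0.69; adjusted P = 0.0867) and of Hsph1 against chow (-1.20; adjusted P = 0.0512) and 1B (-1.22; adjusted P = 0.0616), and it added Hspa1b against HFD (-0.65; adjusted P = 0.0138), against chow (-0.68; adjusted P = 0.0127), and for the term (-1.01; adjusted P = 0.0212). Mice with the same number were not taken as pairs in the main fit. Deviations from the group means in 24 same-numbered pairs correlated at -0.13 to 0.48 (median, 0.18), with 16 of them over 0.1. For 84 pairs with different numbers the median was -0.05, with 19 over 0.1. Pairs on the same slide had a median of 0.20, and pairs on different slides had -0.04. Mice that shared a number or slide were thus more alike, and the main fit held no term for either.

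Over all probes, Cy5 alone called 300 in 1B against chow in place of 1256, 1224 in place of 3457 in HFD against chow, and 1781 in place of 6216 in HFD+1B against HFD. Median centring called 6610 in that last comparison, 5717 of them higher, where loess gave 3438 higher of 6216, and in HFD against chow 451 higher of 3149 in place of 1343 of 3457. The replicate block called 2910 for the term in place of 1426. Signal near background limits Hspa1a.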
